A study of Homo sapiens with 6 samples.

Results

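Bromodomain acetyl-lysine readers are proteins that dock on acetylated histones. The set described here was fixed by name as 9 genes (BRD2, BRD3, BRD7, BRD8, BRD9, BRPF1, BRPF3, BPTF and TAF1). Probe sets were taken as theirs where the platform annotation listed a reader as the one gene symbol. That gave 15 probe sets for 8 readers, of 53617 probe sets and 22395 genes with a symbol of their own. BRD2 had 8 of those probe sets and the other 7 measured readers had 1 each. The probe set that lists BPTF also lists the pseudogene ARHGAP27P1, so BPTF has no level of its own here.

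The cells were A549, a long-established line from a human lung adenocarcinoma, and their RNA was read on whole-transcript arrays made by Affymetrix. The 3 groups were Comp.4 at 2 µM, Comp.2 at 2 µM and vehicle, with 2 arrays each, and RNA was taken on day 2 of treatment. The series title presents the compounds as sequence-specific inhibitors of the enzymes that acetylate histones. Both carry code names here, and no structure was used. The labels do not say whether the arrays of a group came from separate cultures, so p-values measure the spread between these arrays, which may be technical. All 9 epithelial and A549 marker genes lay at or above the 75.6th percentile of their array, with AKR1B10 and NQO1 at or above the 99.5th. The 5 alveolar type II markers, surfactant genes among them, reached at most 4.92 on the log2 scale, against array medians of 4.55 to 4.56.

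A bromodomain is a fold of helices with a pocket for acetylated lysine. Through it, enzymes and scaffold proteins are held on chromatin that acetyltransferases such as EP300 and CREBBP have marked. BRD2 and BRD3 belong to the BET family, which has tandem bromodomains and brings the elongation machinery to genes. BRD7 and BRD9 sit in forms of the SWI/SNF remodelling complex, BRD8 in the NuA4/TIP60 acetyltransferase complex, and BRPF1 and BRPF3 are scaffolds of acetyltransferases of the MYST family. BPTF is the large subunit of the NURF remodelling complex, and TAF1 is the large subunit of the general transcription factor TFIID.

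Upstream sequence was read from a set of RefSeq windows on build GRCh38.p14. The set used here held 8 of the 9 readers and had no entry for BPTF. TAF1 had the largest difference against vehicle of the measured readers, each read by its brightest probe set. The 250 bases before the most upstream listed start are shown for TAF1 and for the BET genes BRD2 and BRD3. Each is written 5′ to 3′ on the gene's own strand. Capitals mark 2 motifs, searched on both strands. The ETS core is CCGGAA, which reads TTCCGG on the opposite strand. The GC box is GGGCGG, which reads CCGCCC on the opposite strand.
TAF1, chrX:71366107-71366356, plus strand: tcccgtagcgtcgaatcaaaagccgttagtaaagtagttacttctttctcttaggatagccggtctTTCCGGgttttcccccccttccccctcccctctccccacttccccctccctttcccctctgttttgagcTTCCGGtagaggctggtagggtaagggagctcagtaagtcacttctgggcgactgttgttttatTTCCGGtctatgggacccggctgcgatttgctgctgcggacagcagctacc
BRD2, chr6:32968344-32968593, plus strand: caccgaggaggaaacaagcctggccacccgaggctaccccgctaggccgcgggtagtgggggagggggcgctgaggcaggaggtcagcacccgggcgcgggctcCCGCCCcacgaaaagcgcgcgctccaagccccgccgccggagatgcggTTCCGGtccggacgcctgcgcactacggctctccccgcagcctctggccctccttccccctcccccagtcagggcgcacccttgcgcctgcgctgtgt
BRD3, chr9:134068027-134068276, minus strand: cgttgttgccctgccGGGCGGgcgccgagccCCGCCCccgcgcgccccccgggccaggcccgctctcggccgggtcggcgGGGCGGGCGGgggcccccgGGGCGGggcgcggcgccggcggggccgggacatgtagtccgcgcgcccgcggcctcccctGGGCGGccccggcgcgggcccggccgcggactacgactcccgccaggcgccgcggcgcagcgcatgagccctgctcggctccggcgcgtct

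The TAF1 window held 3 ETS cores and no GC box, at a GC content of 54.8%. The BRD2 window held 1 of each motif at 74.0%, and the BRD3 window held 6 GC boxes, some sharing bases, at 86.8%. Of the 8 readers, 3 had an ETS core and 6 a GC box in this window, and no match of one motif overlapped the other. Over 35114 RefSeq windows of the same length, 14.5% held the ETS core, 42.6% held the GC box and the median GC content was 58.0%. Those windows include every listed start of a gene, while each reader was read only at its most upstream start. BRD2 had 4 listed starts, and BRD9, BRPF1 and TAF1 had 2 each. BRD8, with neither motif, had the lowest GC content of the readers, at 49.2%. These letters are a description of the windows and no binding was measured.

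The first question was whether the readers' own transcripts differed under either compound. None of the 8 measured readers passed an adjusted p of 0.05 in any of the 3 comparisons, by limma with Benjamini-Hochberg adjustment over all 22395 genes. Over all genes, 0.147% passed for Comp.4 minus vehicle, 0.196% for Comp.2 minus vehicle and 0.371% for Comp.4 minus Comp.2. At an unadjusted p under 0.05 the counts were 0, 1 and 0 of 8 readers, with TAF1 the 1 under Comp.2, against 16.5%, 11.2% and 15% of all genes. The smallest difference called in any gene was 0.605, 0.619 and 0.504 in size (log2), for Comp.4 minus vehicle, Comp.2 minus vehicle and Comp.4 minus Comp.2. Smaller differences did not pass in this fit.

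**Figure D1:**
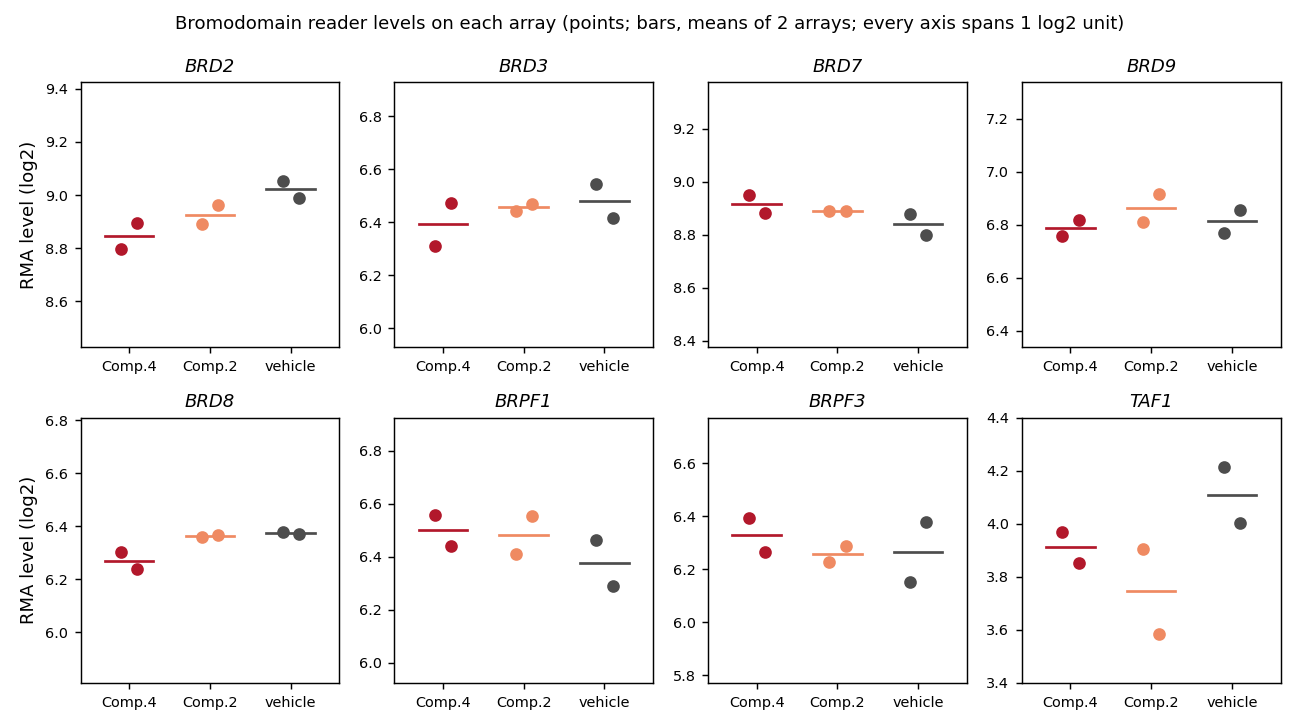
Deposited log2 levels of the 8 measured readers on the 6 arrays, by group from Comp.4 on the left to vehicle on the right; points are arrays and bars are means of 2 arrays. Every vertical axis spans 1 log2 unit: TAF1 ranges over 0.628 between its lowest and highest array, and the other readers over 0.140 to 0.270.

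The 95% intervals, taken at the brightest probe set of each reader, set the range that these arrays leave for that probe set. For Comp.4 against vehicle they ran from 0.781-fold to 1.28-fold over the 7 readers other than TAF1. For Comp.2 against vehicle they ran from 0.825-fold to 1.26-fold, and for Comp.4 against Comp.2 from 0.827-fold to 1.24-fold. With TAF1 included, the bounds widened to 0.705-fold for Comp.4 against vehicle, 0.629-fold for Comp.2 against vehicle and, at the upper end, 1.39-fold for Comp.4 against Comp.2. For the 7 readers other than TAF1, a change of 2-fold lay outside every one of these intervals, which hold for 1 gene at a time. The TAF1 probe set lay below the array medians and was not shown to be above background, so its interval sets no bound on the change of its transcript. For BRD2 the range depends on the probe set. In a fit of all probe sets, 17033678 had an interval of -0.84 to -0.35 (log2) for Comp.4 minus vehicle.

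**Figure D2:**
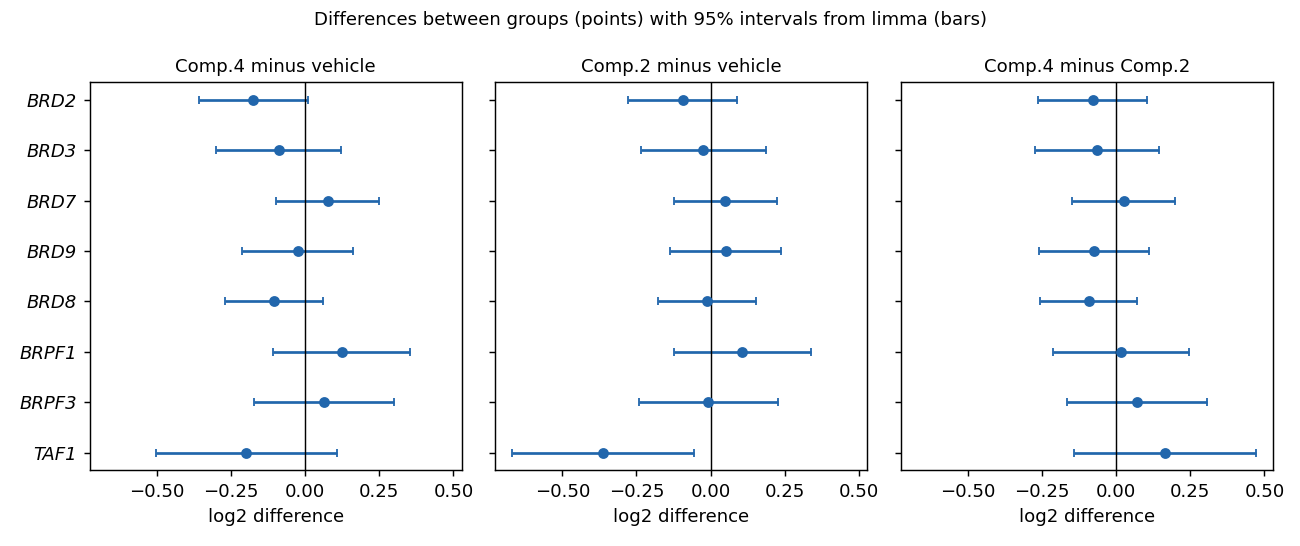
Log2 differences of the 8 readers (points) with 95% intervals from limma (bars), 1 panel per comparison. Over the panels, only the interval of TAF1 for Comp.2 minus vehicle, -0.67 to -0.056, leaves out 0.

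Among the BET proteins, BRD2 binds acetylated histone H4 and couples it to transcription. Its brightest probe set, 17035950, read 8.80 and 8.90 under Comp.4, 8.89 and 8.96 under Comp.2, and 9.05 and 8.99 in vehicle (log2). Both compounds' arrays lay below both vehicle arrays, while the Comp.4 and Comp.2 arrays overlapped. The difference from vehicle was -0.17 for Comp.4 (95% interval -0.36 to 0.0088, adjusted p = 0.321) and -0.0945 for Comp.2 (-0.28 to 0.088, adjusted p = 0.695). Comp.4 differed from Comp.2 by -0.080 (-0.26 to 0.10, adjusted p = 0.670).

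The 8 BRD2 probe sets did not give 1 answer in size. BRD2 lies in the major histocompatibility region, of which the human assembly carries alternative haplotype copies; the annotation used here does not say which copy or part of the gene a probe set reads. Probe sets 17028381 and 17038661 never differed by more than 0.0069 on any array, so they cannot be counted as separate measurements. The 8 mean levels ran from 5.18 to 8.93. In a fit of all probe sets together, 7 of the 8 had a negative difference for Comp.4 minus vehicle, with a median of -0.18 and a range of -0.60 to 0.016. For Comp.2 minus vehicle all 8 were negative, between -0.14 and -0.056.

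Probe set 17033678 had the lowest of these values. It read 7.05 and 7.03 under Comp.4, 7.57 and 7.42 under Comp.2, and 7.73 and 7.54 in vehicle. Comp.4 arrays were below all others, and Comp.2 and vehicle arrays overlapped. Its Comp.4 minus vehicle difference was -0.60 (SE 0.10, unadjusted p = 0.00112, adjusted p = 0.106 over all probe sets). The dimmest, 17035969, read 4.99 and 4.76 under Comp.4, 5.22 and 5.35 under Comp.2, and 5.38 and 5.38 in vehicle, a Comp.4 minus vehicle difference of -0.50 (adjusted p = 0.153). Probe set 17007326 went the other way, at 0.016 (adjusted p = 0.972), and its Comp.4 arrays, at 6.71 and 7.05, lay on either side of both other groups. The 4 brightest probe sets lay between -0.19 and -0.17. No BRD2 probe set passed in any comparison.

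**Figure D3:**
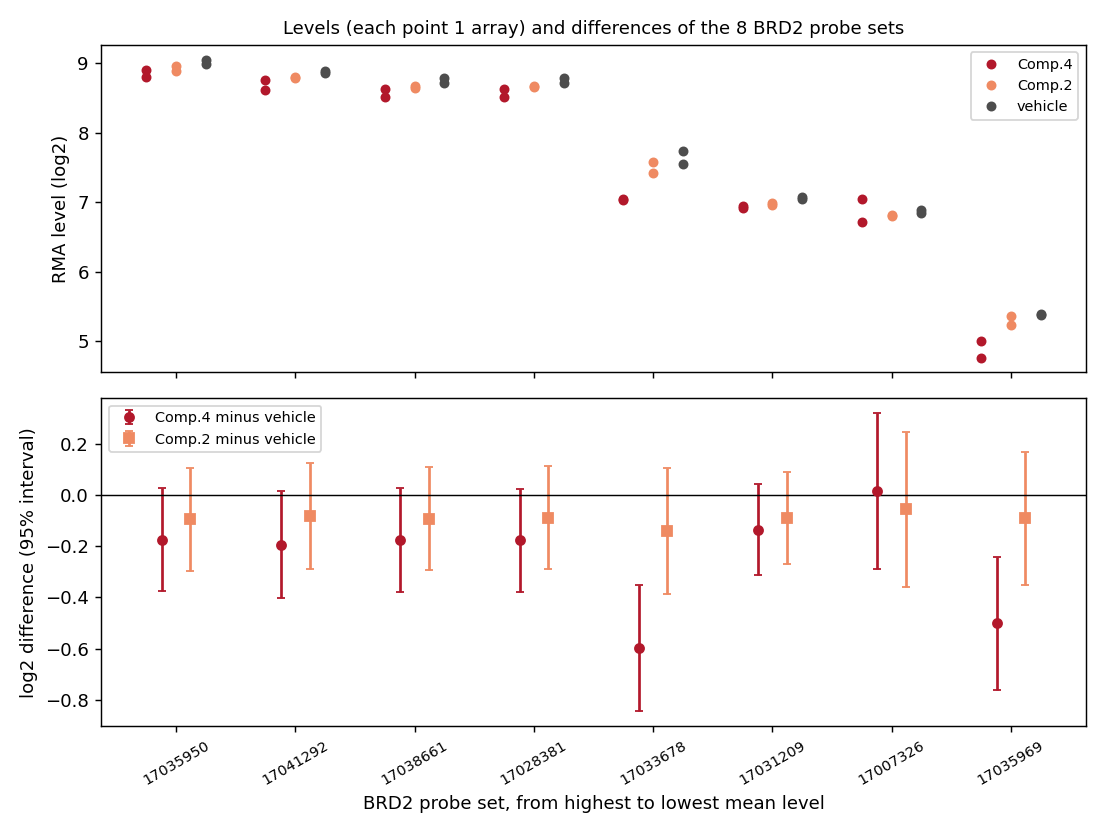
The 8 BRD2 probe sets, ordered by mean level. Upper panel: log2 level on each of the 6 arrays (points), with Comp.4 left of Comp.2 and vehicle. Lower panel: differences from vehicle with 95% intervals; 17033678 and 17035969 have intervals below 0 for Comp.4, and no interval for Comp.2 leaves out 0.

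BRD3, the other BET gene among the measured readers, is a reader of acetylated histones and of the acetylated transcription factor GATA1. It read 6.31 and 6.47 under Comp.4, 6.44 and 6.47 under Comp.2, and 6.54 and 6.41 in vehicle. All 3 groups overlapped. The differences were -0.088 for Comp.4 minus vehicle (95% interval -0.30 to 0.12), -0.024 for Comp.2 minus vehicle (-0.23 to 0.19) and -0.064 for Comp.4 minus Comp.2 (-0.27 to 0.15). The lowest adjusted p of the 3 was 0.671.

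Genes that work with BET proteins in transcription elongation, among them the P-TEFb kinase CDK9, its cyclins and its inhibitor HEXIM1, gave 13 measured of 13 written. None passed in any comparison. Under Comp.4, 12 of the 13 had a negative difference from vehicle, with a median of -0.15, against 45.1% negative and a median of 0.018 over all genes. For Comp.4 minus Comp.2 the count was again 12 of 13 (median -0.17, against 47.7% and 0.0084), and these comparisons share the Comp.4 arrays. For Comp.2 minus vehicle 8 of 13 were negative (median -0.013, against 48.7% and 0.0040). Of the 10068 protein-coding genes above the median gene, 51.2% were negative for Comp.4 minus vehicle, 51.6% for Comp.4 minus Comp.2 and 52.5% for Comp.2 minus vehicle.

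MED1, a Mediator subunit, had the largest difference of that list under Comp.4. It read 8.99 and 8.98 under Comp.4, 9.37 and 9.37 under Comp.2, and 9.51 and 9.56 in vehicle, so the groups did not overlap. Comp.4 minus vehicle was -0.55 (95% interval -0.71 to -0.38, adjusted p = 0.0574) and Comp.4 minus Comp.2 was -0.38 (-0.55 to -0.22, adjusted p = 0.0935). AFF1, a scaffold of the super elongation complex, read 7.92 and 8.02 under Comp.4, 8.41 and 8.31 under Comp.2, and 8.11 and 8.23 in vehicle. Comp.4 was the lowest group and Comp.2 the highest, with differences from vehicle of -0.20 and 0.19 (adjusted p = 0.312 and adjusted p = 0.469) and a Comp.4 minus Comp.2 difference of -0.39 (adjusted p = 0.128). CCNT1, a cyclin of P-TEFb, had 0.24 for Comp.2 minus vehicle (adjusted p = 0.320).

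BRD7 is a subunit of PBAF, a form of SWI/SNF, and is known as a cofactor of p53. Its levels were 8.95 and 8.88 under Comp.4, 8.89 and 8.89 under Comp.2, and 8.88 and 8.80 in vehicle. The lowest treated array, at 8.881, lay just above the highest vehicle array, at 8.880. The differences were 0.076 for Comp.4 minus vehicle (95% interval -0.098 to 0.25, adjusted p = 0.659), 0.050 for Comp.2 minus vehicle (-0.12 to 0.22, adjusted p = 0.845) and 0.026 for Comp.4 minus Comp.2 (-0.15 to 0.20, adjusted p = 0.895).

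All 10 PBAF partners written were measured and none passed. Against vehicle, 9 of 10 were negative for Comp.4 (median -0.099), where 45.1% of all genes were. For Comp.2 10 of 10 were negative (median -0.069, range -0.19 to -0.0024), where 48.7% of all genes were. Of protein-coding genes above the median gene, 51.2% were negative for Comp.4 and 52.5% for Comp.2. The largest for Comp.4 were SMARCC2, a core subunit (-0.18, adjusted p = 0.330), and ARID2, the subunit that defines PBAF (-0.18, adjusted p = 0.281). For Comp.2 they were the core subunits SMARCB1 (-0.19, adjusted p = 0.415) and SMARCD1 (-0.11, adjusted p = 0.684). For Comp.4 minus Comp.2 they were ACTL6A, an actin-like subunit of several complexes (0.22, adjusted p = 0.331), and SMARCB1 (0.19, adjusted p = 0.308).

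BRD9 belongs to ncBAF, the form of SWI/SNF that lacks several canonical subunits. It read 6.76 and 6.82 under Comp.4, 6.81 and 6.91 under Comp.2, and 6.77 and 6.86 in vehicle. The 3 groups overlapped, and the whole range over 6 arrays was 0.155. Comp.4 minus vehicle was -0.025 (95% interval -0.21 to 0.16), Comp.2 minus vehicle 0.051 (-0.14 to 0.24) and Comp.4 minus Comp.2 -0.076 (-0.26 to 0.11), with adjusted p-values of 0.905, 0.856 and 0.694.

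All 10 ncBAF partners were measured. Negative differences numbered 7 for Comp.4 minus vehicle, 6 for Comp.2 minus vehicle and 6 for Comp.4 minus Comp.2. Over all genes 45.1%, 48.7% and 47.7% were negative. None of the 10 passed, but BCL7C came close for Comp.4 minus vehicle. BCL7C, which encodes a small accessory subunit, read 6.30 and 6.27 under Comp.4, 5.96 and 5.92 under Comp.2, and 5.71 and 5.68 in vehicle. The groups did not overlap. Comp.4 minus vehicle was 0.59 (95% interval 0.42 to 0.75, adjusted p = 0.0504), Comp.2 minus vehicle 0.25 (0.081 to 0.41, adjusted p = 0.302) and Comp.4 minus Comp.2 0.34 (0.18 to 0.51, adjusted p = 0.109). Its Comp.4 minus vehicle difference passed when arrays were shifted to equal medians of protein-coding genes (adjusted p = 0.0462). It also passed with a variance trend (adjusted p = 0.00461) and among genes above the median gene (adjusted p = 0.00679). It did not pass with protein-coding genes only, with the replicate number as a block or with only the 4 arrays compared. In those fits 0 genes were higher under Comp.4 than in vehicle. BICRAL, a scaffold that defines ncBAF, had -0.29 for Comp.4 minus vehicle (adjusted p = 0.196), -0.32 for Comp.2 minus vehicle (adjusted p = 0.304) and 0.026 for Comp.4 minus Comp.2 (adjusted p = 0.918). Its paralog BICRA had -0.27 for Comp.4 minus vehicle (adjusted p = 0.151), 0.0056 for Comp.2 minus vehicle (adjusted p = 0.986) and -0.27 for Comp.4 minus Comp.2 (adjusted p = 0.165).

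BRD8 is the bromodomain subunit of NuA4/TIP60, which acetylates histones H4 and H2A. It read 6.30 and 6.24 under Comp.4, 6.36 and 6.37 under Comp.2, and 6.38 and 6.37 in vehicle. The groups did not overlap, and Comp.4 was the lowest group, but the Comp.2 and vehicle arrays all lay between 6.36 and 6.38. The differences were -0.11 for Comp.4 minus vehicle (95% interval -0.27 to 0.059, adjusted p = 0.494), -0.012 for Comp.2 minus vehicle (-0.18 to 0.15, adjusted p = 0.968) and -0.093 for Comp.4 minus Comp.2 (-0.26 to 0.072, adjusted p = 0.572).

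Of 16 NuA4/TIP60 partners written, 15 were measured, and none passed. EP400, the complex's ATPase, had the largest Comp.4 minus vehicle difference, at -0.38 (95% interval -0.55 to -0.21, adjusted p = 0.0993), with 8.34 and 8.33 under Comp.4, 8.52 and 8.61 under Comp.2 and 8.71 and 8.72 in vehicle. MBTD1, a reader of methylated histone H4, had -0.32 (adjusted p = 0.176). YEATS4, itself an acetyl reader of the YEATS family, had -0.30 for Comp.2 minus vehicle (adjusted p = 0.285) and 0.34 for Comp.4 minus Comp.2 (adjusted p = 0.151). EPC2, a scaffold subunit, had -0.27 for Comp.2 minus vehicle (adjusted p = 0.456). MRGBP, a subunit that binds the chromodomain proteins of the complex, had 0.49 for Comp.4 minus Comp.2 (adjusted p = 0.103). Medians were -0.034, -0.079 and 0.054 for Comp.4 minus vehicle, Comp.2 minus vehicle and Comp.4 minus Comp.2. In the same order, 8, 11 and 6 of the 15 were negative, against 45.1%, 48.7% and 47.7% of all genes.

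BRPF1 is the scaffold that holds the acetyltransferases KAT6A and KAT6B on chromatin. It read 6.56 and 6.44 under Comp.4, 6.41 and 6.55 under Comp.2, and 6.46 and 6.29 in vehicle. All groups overlapped. Its Comp.4 minus vehicle difference, 0.12 (95% interval -0.11 to 0.35, adjusted p = 0.573), was the highest of the readers in that comparison, and its Comp.2 minus vehicle difference was 0.11 (-0.12 to 0.34, adjusted p = 0.729). Comp.4 minus Comp.2 was 0.017 (-0.21 to 0.25).

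BRPF3, the scaffold paired chiefly with KAT7 (HBO1), read 6.39 and 6.26 under Comp.4, 6.22 and 6.29 under Comp.2, and 6.15 and 6.38 in vehicle. The 2 vehicle arrays were farther apart than any group means. The differences were 0.064 for Comp.4 minus vehicle (95% interval -0.17 to 0.30), -0.0071 for Comp.2 minus vehicle (-0.24 to 0.23) and 0.071 for Comp.4 minus Comp.2 (-0.16 to 0.31). The lowest adjusted p of the 3 was 0.775.

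The 9 partners of BRPF scaffolds in the MOZ/MORF and HBO1 complexes were all measured and none passed. Against vehicle, 8 of 9 were negative for Comp.4 (median -0.11), where 45.1% of all genes were. For Comp.2 7 of 9 were negative (median -0.056), where 48.7% of all genes were. Of protein-coding genes above the median gene, 51.2% were negative for Comp.4 and 52.5% for Comp.2. The acetyltransferase gene KAT6B read 7.54 and 7.68 under Comp.4, 7.87 and 7.88 under Comp.2, and 8.02 and 7.99 in vehicle, with no overlap. Comp.4 minus vehicle was -0.39 (95% interval -0.58 to -0.21, adjusted p = 0.104) and Comp.4 minus Comp.2 was -0.26 (adjusted p = 0.208). JADE1, a scaffold that takes the place of BRPF proteins in HBO1 complexes, had -0.31 for Comp.4 (adjusted p = 0.203) and -0.25 for Comp.2 (adjusted p = 0.432) against vehicle. ING4, a reader of methylated histone H3, had -0.19 for Comp.2 minus vehicle (adjusted p = 0.449) and 0.18 for Comp.4 minus Comp.2 (adjusted p = 0.363).

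TAF1 carries tandem bromodomains and anchors the TFIID complex at start sites. It read 3.97 and 3.85 under Comp.4, 3.91 and 3.59 under Comp.2, and 4.21 and 4.00 in vehicle. All treated arrays lay below both vehicle arrays, and all 6 lay below the array medians of 4.55 to 4.56. Comp.2 minus vehicle was -0.36 (95% interval -0.67 to -0.056, unadjusted p = 0.0268, adjusted p = 0.383). This was the largest difference of any reader at its brightest probe set, while BRD2 probe set 17033678 had -0.60 for Comp.4 minus vehicle. TAF1 had -0.20 for Comp.4 minus vehicle (-0.50 to 0.11, adjusted p = 0.489) and 0.16 for Comp.4 minus Comp.2 (-0.14 to 0.47, adjusted p = 0.593). The Comp.2 minus vehicle value was -0.52 without Comp.2 replicate 1 and -0.20 without Comp.2 replicate 2.

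Of 15 TFIID partners written, 14 were measured, 7 of them negative for Comp.2 minus vehicle (median -0.0044) and 9 for Comp.4 minus vehicle (median -0.013). Over all genes 48.7% and 45.1% were negative. None of the 14 partners passed. TAF13, a histone-fold subunit, read 6.71 and 6.88 under Comp.4, 7.30 and 7.06 under Comp.2, and 6.86 and 6.77 in vehicle. Only the Comp.2 arrays stood above the rest, with 0.37 for Comp.2 minus vehicle (adjusted p = 0.312) and -0.39 for Comp.4 minus Comp.2 (adjusted p = 0.185). TAF4B had -0.28 for Comp.2 minus vehicle (adjusted p = 0.323) and 0.26 for Comp.4 minus Comp.2 (adjusted p = 0.238). The largest for Comp.4 minus vehicle were TAF8 (-0.20, adjusted p = 0.384) and TAF9B (0.18, adjusted p = 0.336).

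BPTF recognises methylated as well as acetylated histone tails, but without a level of its own it entered no comparison. Of its 5 NURF partners written 3 were measured, and none passed. HMGXB4, a NURF-associated protein, had -0.20 against vehicle for Comp.4 (adjusted p = 0.294) and -0.20 for Comp.2 (adjusted p = 0.444). RBBP7, a histone chaperone, had 0.040 for Comp.4 and 0.074 for Comp.2 against vehicle. SMARCA1, an ATPase of the ISWI family, had -0.097 for Comp.4 minus Comp.2 (adjusted p = 0.557).

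The 8 readers were split in direction. For Comp.4 minus vehicle 5 were negative and 3 positive, with a median of -0.057, and for Comp.2 minus vehicle 5 were negative and 3 positive, with a median of -0.0096. For Comp.4 minus Comp.2 the split was 4 and 4, with a median of -0.024. Arrays did not overlap between groups for 4 of 8 readers under Comp.4 against vehicle (BRD7 above, BRD2, BRD8 and TAF1 below), where 49.4% of all genes did not overlap (27.2% above and 22.2% below). The same 4 readers, in the same directions, did not overlap under Comp.2 against vehicle, where the share over all genes was 43.7% (22.7% above and 21% below). These comparisons share the vehicle arrays. Between the compounds 1 of 8, BRD8, did not overlap and was lower under Comp.4, against 45.3% of all genes and 21.6% in that direction. The median size of the readers' differences, regardless of sign, was 0.097, 0.050 and 0.073 in the 3 comparisons, beside 0.10, 0.088 and 0.10 over all genes.

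The other bromodomain genes were set beside the readers. Of 32 written, 31 were measured, the acetyltransferases CREBBP and EP300 among them, and none passed. Under Comp.4, 22 of 31 were negative against vehicle, with a median of -0.11, against 45.1% of all genes and 51.2% of the 10068 protein-coding genes above the median gene. At an unadjusted p under 0.05, 8 of the 31 were lower, where 7.88% of all genes were, and 3 were higher, where 8.64% were. Of the protein-coding genes above the median gene, 12.1% were lower and 8.96% higher. For Comp.4 minus Comp.2 24 of 31 were negative, with a median of -0.12. For Comp.2 minus vehicle 15 were negative and 16 positive, with a median of 0.0068. Whether the readers and these genes differ from each other was not tested. When the variance prior was allowed to follow the level, 9 of the 103 genes of all lists passed for Comp.4 minus vehicle, beside 5.47% of all genes, with CREBBP, MED1, EP400, KAT6B and BCL7C among them. In that fit 1 of 103 (YEATS4) passed for Comp.2 minus vehicle, beside 1.73% of all genes, and 12 of 103 for Comp.4 minus Comp.2, beside 4.8%. No reader passed there.

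Among these other bromodomain genes, the corepressor gene TRIM66 had the largest difference for Comp.4 minus vehicle, at -0.45 (adjusted p = 0.122), with 5.27 and 5.03 under Comp.4 against 5.54 and 5.65 in vehicle. CREBBP followed at -0.41 (adjusted p = 0.104), and for Comp.4 minus Comp.2 it had -0.42 (adjusted p = 0.102). PHIP, a substrate receptor of a ubiquitin ligase, had -0.34 for Comp.4 minus Comp.2 (adjusted p = 0.117). The largest of the same list for Comp.2 minus vehicle were SP140L, an SP100 family gene, at 0.37 (adjusted p = 0.154), and BAZ1A, a subunit of ISWI remodellers, at 0.17 (adjusted p = 0.420). The 7 acetyl readers without a bromodomain, of the YEATS and DPF families, had medians of -0.013, -0.0025 and -0.0062 for Comp.4 minus vehicle, Comp.2 minus vehicle and Comp.4 minus Comp.2, with none past. Beside YEATS4, the named members were YEATS2 (-0.17 for Comp.4 minus vehicle and -0.23 for Comp.4 minus Comp.2), DPF2 (-0.11 for Comp.4 minus vehicle) and MLLT3 (0.11 for Comp.2 minus vehicle).

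**Figure D4:**
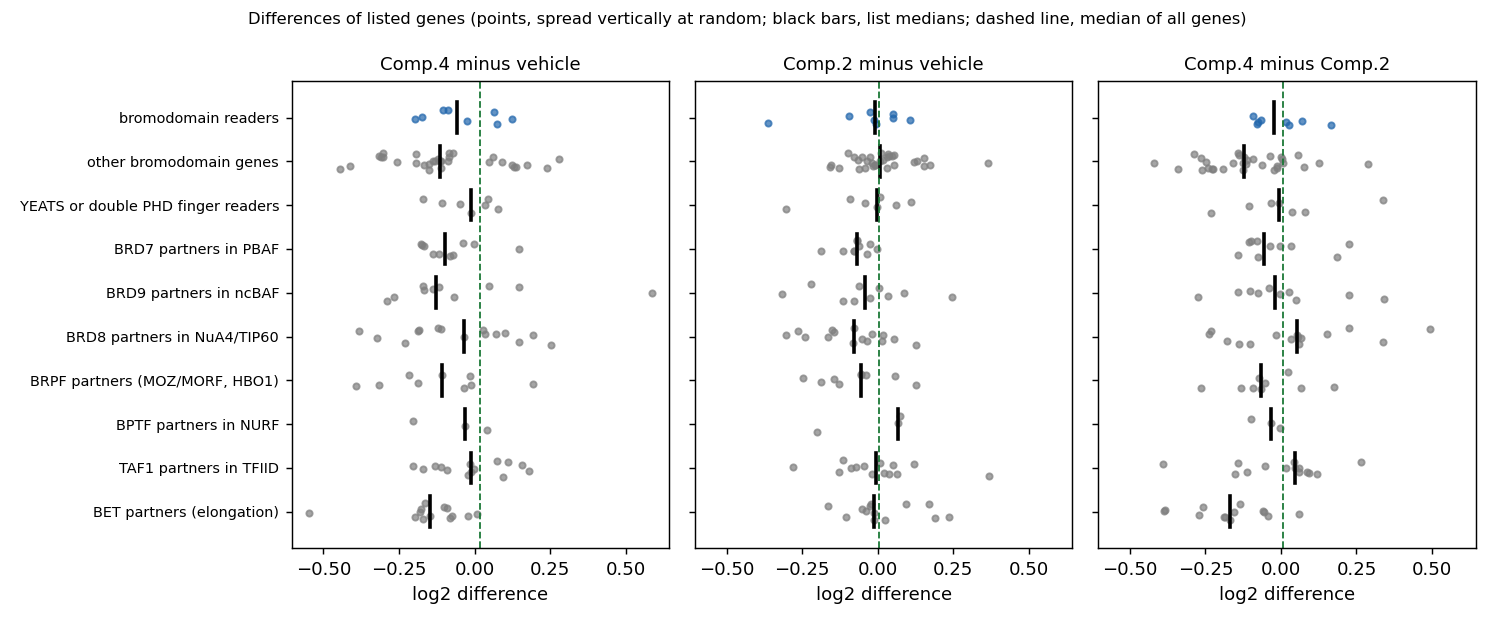
Log2 differences of the 8 readers (blue) and of the genes of the 9 lists (grey), 1 point per gene and 1 panel per comparison, with list medians as black bars and the median of all genes as a dashed line. The BET partners and the other bromodomain genes have medians of -0.15 and -0.11 for Comp.4 minus vehicle, and the readers -0.057; no gene drawn passed the threshold.

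No marker of fibroblasts, endothelium or leukocytes passed in any comparison, of 6, 4 and 5 measured. Each marker's lowest level over the arrays had a median of 4.14, 4.13 and 3.42 (log2) in these lists. Only CD14 (5.85 to 6.20), COL1A1 (5.31 to 5.54) and THY1 (5.15 to 5.41) lay above the array medians of 4.55 to 4.56 on every array. The mean of the 8 readers, each centred on its own mean, ran only from -0.026 to 0.048 over the 6 arrays, highest on vehicle replicate 1 and lowest on Comp.4 replicate 2. The 5 protein-coding genes of 10061 whose levels over the 6 arrays were most like that mean were HAUS5 (Pearson's r = 0.991), ADH5 (0.982), ITPR1 (0.982), SPC24 (0.982) and SLC25A43 (0.977). HAUS5 averaged 6.92 under Comp.4, 6.94 under Comp.2 and 7.05 in vehicle. With 6 arrays and so many candidates, high values of r are a description only.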

How the data were processed

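Levels are the authors' deposited log2 values, made by RMA, a method that subtracts background, equalises the arrays' distributions by quantiles and pools probes. RMA, Expression Console 1.3.1 and Transcriptome Analysis Console 2.0 are named in the submitters' processing notes. The genome build behind the probe annotation is not given in the sources used here. Array medians were already equal, so a change shared by most transcripts cannot be seen. Scanner files and scan dates were not used here. Of the probe sets, 23871 had 1 gene symbol, 1842 several and 27904 none; 22569 were matched by Entrez number to RefSeq (GRCh38.p14), updating 90 symbols. The brightest probe set stood for each of 632 genes with several. Group means were fitted to all 6 arrays with limma 3.58.1 in R 4.3.3 (3 residual and 3.71 prior degrees of freedom), tested two-sided and adjusted by Benjamini-Hochberg over 22395 genes at 0.05. The pipeline was tested on simulated data. With 2 arrays a group, the smallest exact permutation p is 0.333, so no such test was run. Named genes were all readers and, in each list and comparison, every gene past the threshold and the 2 largest differences. Readers and lists were chosen with earlier results of these data known. Alternatives covered single arrays, replicate block, variance prior, low-level filter, probe-set summary, gene universe and scaling.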

Additional observations from a re-analysis of the deposited data

How the results depend on the processing

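No reader passed in any comparison under any alternative in which it was tested. The filter to genes above the median gene drops TAF1, so TAF1 was not tested there. The lowest adjusted p was 0.101, for BRD2 in Comp.4 minus vehicle with a variance trend. Without 1 array at a time the readers' median lay between -0.064 and -0.0031 for Comp.4 minus vehicle, -0.026 and 0.0072 for Comp.2 minus vehicle, and -0.067 and -4e-04 for Comp.4 minus Comp.2. The block, the variance settings, the gene filters and the fits of 4 arrays or all probe sets cannot change a difference. In them only the adjusted p could move, as when the array left out was of the third group. Many of the unchanged signs below were therefore fixed in advance. Of 357 reader values under alternatives, 346 kept their direction and side of the threshold and 11 changed sign, each without 1 array. They belonged to BRD3 (-0.090 to 0.041), BRD9 (-0.0010 to 0.10) and BRPF3 (-0.12 to 0.11) for Comp.2 minus vehicle. For Comp.4 minus vehicle they were BRD9 (-0.069 to 0.019) and BRPF3 (-0.049 to 0.18). For Comp.4 minus Comp.2 they were BRD3 (-0.15 to 0.018), BRD7 (-0.0087 to 0.061) and BRPF1 (-0.055 to 0.089).

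Counts over all genes moved far more, and the cause was not tested. With all probe sets together, the counts given here are of probe sets, of 53617, and not of genes. For Comp.4 minus vehicle 12 genes were higher and 21 lower; this became 488 and 738 with a variance trend, 340 and 499 among genes above the median gene, 7 and 92 with all probe sets together, 0 and 0 with protein-coding genes only, and 0 and 0 with only the 4 arrays compared. For Comp.2 minus vehicle 30 were higher and 14 lower, against 226 and 162 with the trend, 154 and 79 above the median gene, 0 and 0 with all probe sets, and 9 and 5 with the 4 arrays. For Comp.4 minus Comp.2 43 were higher and 40 lower, against 484 and 591 with the trend, 324 and 392 above the median gene, 1 and 1 with all probe sets, and 0 and 0 with the 4 arrays; with protein-coding genes only 14 were higher and 33 lower, and 41 and 21 for Comp.2 minus vehicle. Leaving out 1 array gave 0 and 0 for Comp.4 minus vehicle, 0 to 9 higher and 0 to 5 lower for Comp.2 minus vehicle, and 0 to 1 higher and 0 lower for Comp.4 minus Comp.2, with fewer residual degrees of freedom.

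With the replicate number as a block, 0 genes were higher and 4 lower for Comp.4 minus vehicle, 9 and 6 for Comp.2 minus vehicle, and 0 and 0 for Comp.4 minus Comp.2, and no reader passed. Same-numbered arrays did not deviate together over genes (r of -0.042 to 0.029). The labels do not say what the numbers mark, and a small shared effect could escape this r. Whether the numbers pair the arrays is therefore not known. Of the 103 other listed genes, 0 passed in any comparison. With a variance trend 9, 1 and 12 passed for Comp.4 minus vehicle, Comp.2 minus vehicle and Comp.4 minus Comp.2. Over all genes that fit passed 5.47%, 1.73% and 4.8%. Above the median gene 9, 1 and 10 passed, but not of 103, because the filter drops listed genes of low level such as BRDT. The counts over all genes under that filter are given above, and no share was computed. Equal protein-coding medians let 1 pass, BCL7C for Comp.4 minus vehicle. With the trend, 8 of the 9 for Comp.4 minus vehicle were lower (738 of 1226 over all genes), among them MED1 (adjusted p = 0.000243), CREBBP (0.00315), EP400 (0.00354), KAT6B (0.00798), PHIP (0.00886) and KMT2A (0.0139), and BCL7C (0.00461) was higher.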

Other observations

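The probe set 16837230, which the annotation pairs with the symbols BPTF and ARHGAP27P1 and which is therefore assigned to neither, read 9.19 and 9.27 under Comp.4, 9.57 and 9.57 under Comp.2, and 9.62 and 9.65 in vehicle. The groups did not overlap. In the limma fit of all probe sets its Comp.4 minus vehicle difference was -0.41 (95% interval -0.59 to -0.22, adjusted p = 0.126), its Comp.4 minus Comp.2 difference -0.34 (-0.52 to -0.15, adjusted p = 0.215) and its Comp.2 minus vehicle difference -0.071 (-0.26 to 0.12, adjusted p = 0.834), none past the threshold.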
